A study of Araneus ventricosus with 24 samples.

Results

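The genes described here are transcripts for carriers of sugars, monocarboxylates and amino acids, and for enzymes of trehalose metabolism, in the orb-weaving spider *Araneus ventricosus*. They are the 175 of 142219 assembled gene clusters whose closest protein in the NR or Swissprot database is described, in any letter case, with trehalose, trehalase, glucose transporter, amino acid transporter or monocarboxylate transporter. RNA was sequenced from the ampullate gland, a silk gland, and from the cerebral ganglia. In each tissue 1 group was left untreated, and for 30 days the others received cadmium, lead, or both metals, here called combined. The labels give no dose, sex, age or strain, and the groups share no other treatment in them. Of the 3 columns labelled for each group, 2 were identical in every cluster in the lead and combined groups of both tissues and were counted once, so each tissue has 3 untreated, 3 cadmium, 2 lead and 2 combined libraries. Nothing in the labels ties a library to an animal of its own, and a p-value here reflects library-to-library spread, which may be technical.

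Sugars, lactate and amino acids are too polar to cross a membrane unaided, and each is moved by families of solute carriers. Trehalose, a disaccharide of glucose, is the main blood sugar of insects, where it is made from glucose phosphates, carried across membranes by Tret1 and split by trehalase inside the tissues that use it. Monocarboxylate transporters of the SLC16 family carry lactate, pyruvate and related acids with protons, and some mammalian members carry aromatic amino acids or creatine instead, while sodium-coupled monocarboxylate transporters draw their substrates in with sodium. Excitatory amino acid transporters clear glutamate around nerve cells, cationic amino acid transporters carry arginine and lysine, and light chains of the b(0,+) and Y+L types exchange amino acids across the membrane together with a heavy chain. Silk glands take up large amounts of amino acids, since spidroins are rich in glycine and alanine.

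Library totals ran from 14834065 to 20954478 estimated counts. In the gland libraries with lead the length correction in the FPKM table implied a mean fragment of 276.0 to 278.2 bases (n = 4), against 247.1 to 273.0 without lead (n = 6). In the ganglia the values were 271.5 to 281.5 and 248.3 to 262.2 bases. The labels give no batch, so library preparation and lead cannot be told apart, and this holds for every difference below between libraries with and without lead. The tissues kept to their labels in the summed level of marker clusters. Silk clusters (69, spidroins and fibroins) summed to 42960 to 186500 CPM, counts scaled to a common library total, in the gland and 248.7 to 6785 in the ganglia. Nerve clusters (97) summed to 927.3 to 1641 CPM in the gland and 2691 to 11110 in the ganglia, where muscle clusters (107) also summed to 25880 to 74440 CPM, against 1634 to 5139 in the gland. In these bulk samples fewer cells of a type and less RNA per cell cannot be told apart.

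The largest class was that of the monocarboxylate transporters, with 83 members, of which 61 were SLC16-type and 22 sodium-coupled. Glucose transporters followed with 19 members (7 facilitated, 11 sodium-dependent and 1 UDP-sugar transporter). There were 15 cationic, 8 excitatory, 8 proton-coupled and 9 sodium-dependent nutrient or neutral amino acid transporters, 5 each of the b(0,+) and Y+L types, 4 vesicular, vacuolar or other amino acid transporters and 6 trehalose transporters. Members were 301 to 14381 bases long (median 1676), and 143 had a spider protein as their closest NR hit. Several members carry one name, and clusters with neighbouring numbers such as 51303 and 51304 may be parts of one gene, so counts can be split between them. Members are given below by the name of the closest Swissprot protein and by the last part of the cluster number, which is 16698 followed by that part unless written out.

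Of the trehalose pathway, carriers but no enzyme passed the filter. All 6 trehalose transporters matched Tret1, the facilitated trehalose carrier first known from insects, and 5 of them passed the filter on low counts in either tissue. The member named trehalase and the 4 named for trehalose-phosphate synthesis had 4 to 14 estimated counts each over all 20 libraries, and the closest Swissprot hit of each was a microbial protein. Such a hit and no spider hit in NR were shared by 15 members in all, 8 of them other trehalose enzymes or carriers such as maltooligosyl trehalose synthase and the permease MalF. Together these 15 had 187 counts, 142 of them in untreated gland replicate 1, where 11 were detected. None passed the filter, and none is treated as a spider gene below. At this depth these search words brought up no spider trehalase or trehalose-phosphate synthase, which does not show that the spider lacks one.

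Levels between members were compared as FPKM, which divides counts by cluster length. Of the 175 members 98 had a mean of at least 1 FPKM over the 20 libraries, 22 of at least 10 and 3 of at least 100. The 3 highest were 2 clusters of b(0,+)-type amino acid transporter 1, an exchanger that in mammals takes up cystine and basic amino acids, and 1 of sodium-dependent glucose transporter 1. The b(0,+) cluster 48634 stood at 70.2, 305 and 87 FPKM untreated, 168, 226 and 138 with cadmium, 500.3 and 426 with lead and 411 and 385 with both in the gland, and at 98.7, 99.97 and 41 FPKM untreated, 106, 122 and 170.2 with cadmium, 303 and 246 with lead and 282 and 190.2 with both in the ganglia. In both tissues its lead libraries lay above its untreated ones. The second b(0,+) cluster, 47641, was at 363, 193 and 294 FPKM untreated, 228, 198 and 140.02 with cadmium, 236 and 235 with lead and 200.3 and 226 with both in the gland, and at 102, 99.3 and 48 FPKM untreated, 89.9, 129.7 and 143 with cadmium, 151 and 124 with lead and 167 and 111 with both in the ganglia. All gland libraries but cadmium replicate 3 lay above all ganglia libraries, and that one lay among the higher ganglia values. Sodium-dependent glucose transporter 1 (49906), a carrier first described in rat kidney, was at 27.8, 72.6 and 22.9 FPKM untreated, 30.1, 46.2 and 40.4 with cadmium, 36.4 and 66.9 with lead and 78.2 and 75.6 with both in the gland, and at 253, 265 and 210.4 FPKM untreated, 118, 162 and 239.96 with cadmium, 768 and 545 with lead and 668 and 551 with both in the ganglia. Every ganglia library lay above every gland library, and the 4 ganglia libraries with lead lay above the rest. After these in mean FPKM came monocarboxylate transporter 12 (49410, related to a creatine carrier of mammals), excitatory amino acid transporter 2 (62953), monocarboxylate transporter 13 (45389) and a further monocarboxylate transporter 12 (47421). The 2 b(0,+) clusters did not differ beyond their spread in untreated gland (154 ± 131 and 283 ± 85.9 FPKM, mean ± SD, n = 3) or untreated ganglia (79.9 ± 33.7 and 83 ± 30.3).

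The leading members of the other classes were lower. Among trehalose carriers the Tret1 cluster with the most counts (37618) was at 9.57 ± 2.72 FPKM (mean ± SD, n = 3) in untreated gland and 14.6 ± 4.95 in untreated ganglia, and the second by counts, 68450, was at 1.63 ± 1.11 and 3.7 ± 1.5. The leading facilitated glucose transporter by counts, glucose transporter type 1 (49952), was at 4.45 ± 2.92 FPKM in untreated gland and 7.43 ± 0.68 in untreated ganglia. Cationic amino acid transporter 2 (45906) was at 10.2, 22.9 and 6.85 FPKM untreated, 13.6, 20.01 and 10.2 with cadmium, 46.5 and 29.5 with lead and 22.6 and 46.3 with both in the gland, and at 3.42, 4.06 and 1.93 FPKM untreated, 2.13, 4.2 and 4.86 with cadmium, 8.29 and 8.04 with lead and 6.29 and 12 with both in the ganglia. In the ganglia its 4 libraries with lead lay above the 6 without, and in the gland 1 combined library lay within the untreated range. Proton-coupled amino acid transporters take up small amino acids with protons, and the 2 leading clusters both match proton-coupled amino acid transporter 1. Of these, 57377 was at 1.79, 6.12 and 3.16 FPKM untreated, 4.54, 10.3 and 6.45 with cadmium, 13.6 and 9.63 with lead and 16.6 and 22.4 with both in the gland. Sodium-coupled neutral amino acid transporter 10 (53214) led its class, at 6.43 ± 2.55 FPKM in untreated gland and 3.36 ± 0.891 in untreated ganglia.

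**Figure D1:**
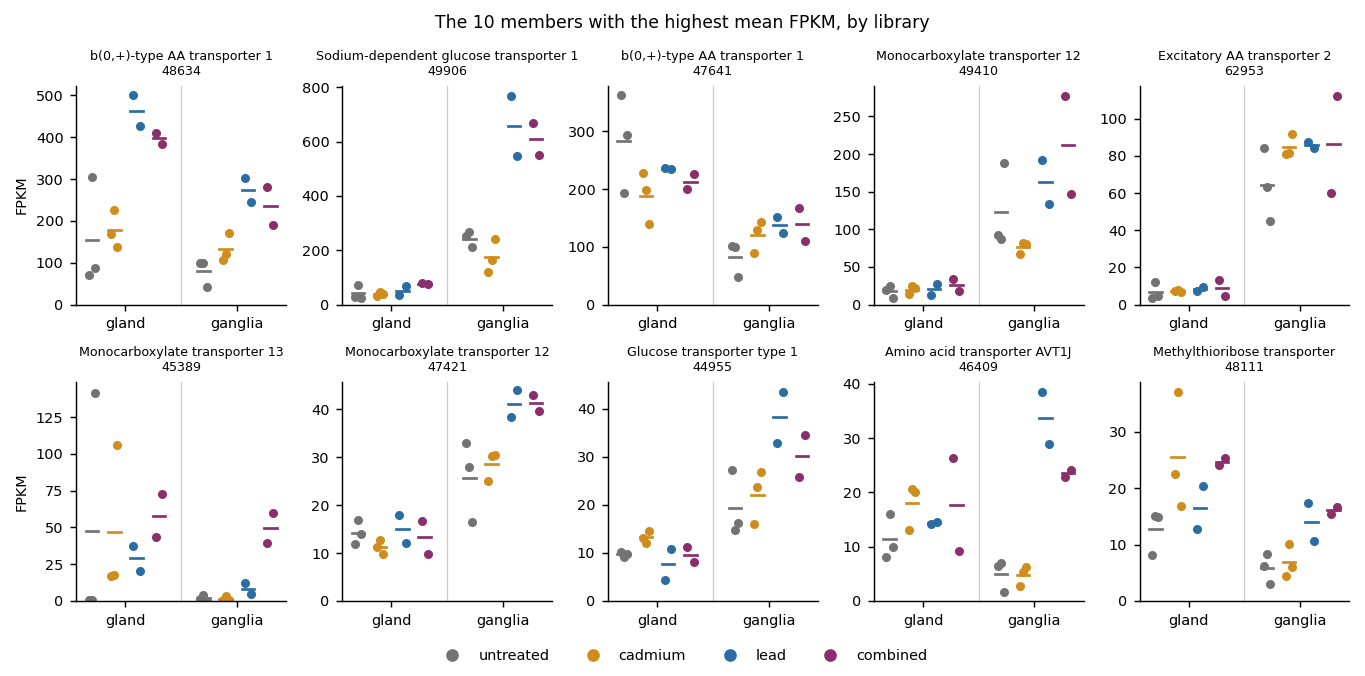
FPKM of the 10 members with the highest mean FPKM, by tissue; points are libraries (3 untreated, 3 cadmium, 2 lead, 2 combined per tissue), bars are group means, and each panel has its own linear axis from 0. Sodium-dependent glucose transporter 1 (49906) and excitatory amino acid transporter 2 (62953) are higher in every ganglia library than in any gland library, while monocarboxylate transporter 13 (45389) differs widely between libraries of one group.

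In untreated spiders the gland and the ganglia differed in which members of the same families were high. Of 136 members tested 28 differed at an adjusted p under 0.05, 12 with more in the gland and 16 with more in the ganglia, against 5325 of all 51904 clusters tested (10.3%). The median log2 ratio of gland over ganglia was -0.06 over the members and 0.10 over all clusters. Tests here and below are edgeR's quasi-likelihood tests with Benjamini-Hochberg adjustment over all clusters tested, and ratios are fitted log2 ratios of CPM with their standard error (SE). CPM of the untreated tissues are on the scale of all 20 libraries. DESeq2 called 43 members and a fit of the 6 untreated libraries alone called 10. The edgeR count was 18 without untreated ganglia replicate 3.

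Of the 8 excitatory amino acid transporters, which clear glutamate, 5 were called with more in the ganglia and 1 with more in the gland. Excitatory amino acid transporter 2 (62953) was at 6.48, 30.4 and 10.3 CPM in the gland and 217, 152 and 136 in the ganglia (log2 ratio -3.42 ± 0.57 (SE), adjusted p = 0.00146). Excitatory amino acid transporter 3 (65424) was at 1.68, 4.06 and 1.73 CPM in the gland and 23.9, 17.9 and 34 in the ganglia (log2 ratio -3.34 ± 0.45 (SE), adjusted p = 0.000316). In both, every gland library lay below every ganglia library. The 3 others, all matching excitatory amino acid transporter 3, had ratios of -3.83 (18392), -3.99 (73097) and -5.31 (17515). They are 374 to 1348 bases long and may be parts of one gene. With 1 library left out at a time, 18392 and 17515 were called in all 20 fits and 73097 in 7, and 73097 was not called with the replicate block or in a fit of the compared groups alone. The exception, excitatory amino acid transporter 3 (59133), was at 7.15, 3.01 and 51.4 CPM in the gland and 1.71, 2.44 and 1.1 in the ganglia (log2 ratio 3.54 ± 0.92 (SE), adjusted p = 0.0213), and 1 gland library held most of its level. Its call held in 16 of the 20 fits and was lost with the replicate block and in a fit of the compared groups alone. The vesicular inhibitory amino acid transporter (21764), which loads GABA and glycine into synaptic vesicles, had no count in untreated gland and 0.198, 1.63 and 0.392 CPM in the ganglia, at least 12.1-fold higher against a floor of 3 counts over the gland group (adjusted p = 0.0373), and was called in 16 of the 20 fits.

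Among the sugar carriers, sodium-dependent glucose transporter 1 (49906) was at 35.2, 126 and 36.9 CPM in the gland and 440.3, 432 and 429 in the ganglia (log2 ratio -2.72 ± 0.48 (SE), adjusted p = 0.00196). Glucose transporter type 1, the facilitated carrier, was lower in the gland in clusters 25434 (log2 ratio -2.72 ± 0.66 (SE), adjusted p = 0.0146) and 44955 (log2 ratio -1.23 ± 0.38 (SE), adjusted p = 0.048). A further facilitated cluster, 83635, passed the other way with overlapping groups and no count in the untreated ganglia, at least 10.7-fold higher in the gland. Of the 20 fits that each left out 1 library, 83635 was called in 1, 44955 in 5 and 25434 in 19. All 5 tested trehalose transporters had a negative ratio (median -1.47), and Tret1 (23838) passed the test at 0.223, 1.57 and 0.494 CPM in the gland and 7.45, 5.45 and 3.53 in the ganglia (log2 ratio -2.84 ± 0.73 (SE), adjusted p = 0.0193). Its gland libraries all lay below its ganglia libraries, at low levels.

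The SLC16-type monocarboxylate transporters split, with 5 of 51 tested favouring the gland and 4 the ganglia. Monocarboxylate transporter 13 (69299) was at 9.27, 72.5 and 5.62 CPM in the untreated gland libraries and had no count in the untreated ganglia, at least 422-fold higher against a floor of 3 counts over the group (adjusted p = 0.00214). Monocarboxylate transporter 9 (49159) was at 17.7, 39.3 and 31.6 CPM in the gland and 0.857, 1.44 and 0.157 in the ganglia (log2 ratio 5.14 ± 0.92 (SE), adjusted p = 0.00278). Monocarboxylate transporter 12 (49410) went the other way, at 59.99, 105 and 35.1 CPM in the gland and 394, 348 and 939 in the ganglia (log2 ratio -3.07 ± 0.59 (SE), adjusted p = 0.00328). These groups did not overlap. The other calls without overlap were monocarboxylate transporters 9 (76294, ratio -3.42), 12 (77945, ratio -2.78) and 14 (78599, with no count in the untreated gland) with more in the ganglia, and 3 (10562) and 7 (41274.0), with no count in the untreated ganglia. Of the 20 fits that each left out 1 library, 76294 and 41274.0 were called in all, 78599 in 19, and 10562 and 77945 in 17. Cluster 68967, also monocarboxylate transporter 12, was called higher in the gland (log2 ratio 2.37 ± 0.70 (SE), adjusted p = 0.039) with overlapping groups, at 2.68, 17.9 and 1.73 CPM in the gland and 2.44, 1.07 and 0.784 in the ganglia. Its call held in 9 of the 20 fits, with ratios down to 0.62, and was lost with the replicate block and in a fit of the compared groups alone. Of the sodium-coupled clusters, 74273 was lower in the gland (log2 ratio -5.63 ± 1.24 (SE), adjusted p = 0.00872) and 9378 was higher (log2 ratio 4.21 ± 1.19 (SE), adjusted p = 0.0319). Both are close to a multivitamin carrier, which 74273 matches in Swissprot and 9378 in NR. The call of 74273 was lost in a fit of the compared groups alone. That of 9378 was lost with the replicate block and without untreated ganglia replicate 1 or 3 or untreated gland replicate 3.

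Amino acid exchangers also divided by cluster. The b(0,+) cluster 47641 was at 342, 247 and 351 CPM in the gland and 131, 119.6 and 72.4 in the ganglia (log2 ratio 1.54 ± 0.33 (SE), adjusted p = 0.00623) and 45101 was likewise higher in the gland (log2 ratio 1.90 ± 0.42 (SE), adjusted p = 0.0084). The third, 49913, was at 71.4, 60.4 and 27.3 CPM in the gland and 298, 123 and 283 in the ganglia (log2 ratio -2.15 ± 0.45 (SE), adjusted p = 0.00634), higher in the ganglia. Cationic amino acid transporter 2 (45906), an arginine and lysine carrier, was at 51, 157 and 43.7 CPM in the gland and 23.7, 26.3 and 15.6 in the ganglia (log2 ratio 1.94 ± 0.44 (SE), adjusted p = 0.01), with every gland library above every ganglia library. Cluster 51303, which matches a cationic amino acid transporter in both databases, was also called higher in the gland (log2 ratio 2.37 ± 0.72 (SE), adjusted p = 0.0438), a call that held in 3 of the 20 fits that each left out 1 library. None of the 7 proton-coupled and 9 sodium-dependent nutrient or neutral members tested passed, with 3 of each class at an unadjusted p under 0.05.

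**Figure D2:**
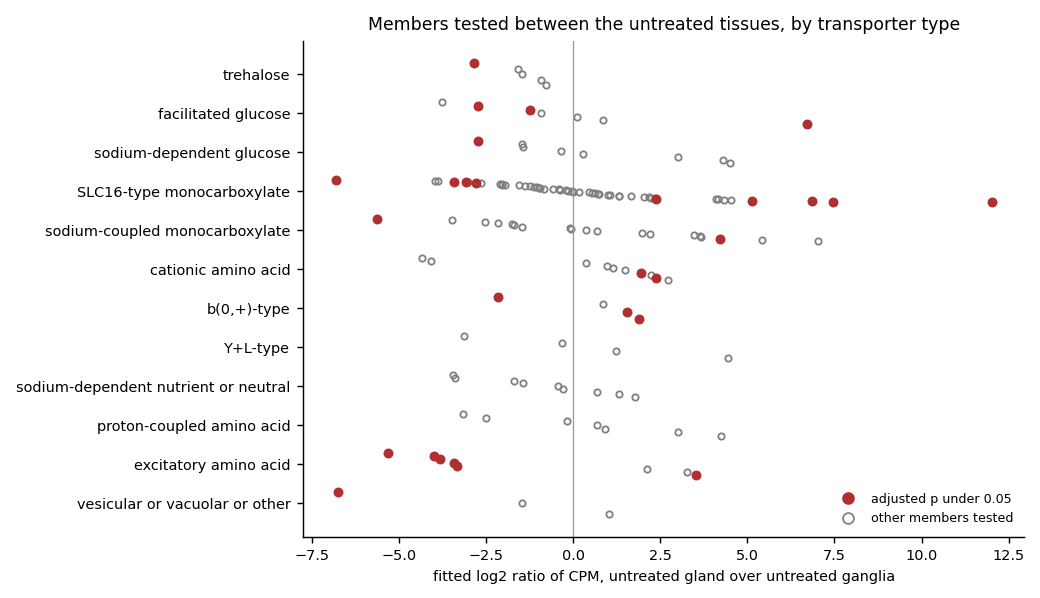
Fitted log2 ratio of CPM, untreated gland over untreated ganglia (3 libraries each), for the tested members, 1 row per transporter type; filled points passed an adjusted p under 0.05. The UDP-sugar transporter is not drawn, and ratios of members with no count in 1 tissue depend on the fit. The 5 excitatory amino acid transporters called to the left of 0 lie between -3.34 and -5.31.

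With lead alone more carriers rose than fell in the ganglia. Of 105 members tested 8 rose and 1 fell, against 1901 of 38659 clusters called in either direction (4.92%). The split of these 1901 into rises and falls is not given here. At an unadjusted p under 0.05 there were 35 members (33.3%) against 24.9% of all clusters. The median log2 change was 0.29 over the members and -0.05 over all clusters. The risers were 4 SLC16-type monocarboxylate transporters, a light chain of the Y+L type, a cationic amino acid transporter, a vacuolar-type amino acid transporter and a trehalose transporter, and the member that fell was a sodium-dependent glucose transporter. Lead ganglia libraries also differed in silk clusters, which summed to 248.7 to 790.3 CPM against 1521 to 6785 untreated, with 15 of 69 at 0 in each group. Nerve and hemolymph clusters overlapped between these groups. The part of the silk clusters in the result was not tested.

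Tret1 (16569), the trehalose carrier, was at 4.96, 4.4 and 2.72 CPM untreated, 2.07, 3.1 and 3.71 with cadmium, 26.9 and 18.7 with lead and 18.7 and 27.5 with both (log2 ratio 2.49 ± 0.36 (SE), adjusted p = 0.0139 for lead). The 4 libraries with lead all lay above the 6 without. Tret1 (23838) had a like order of groups, at 7.37, 5.4 and 3.5 CPM untreated, 2.84, 3.45 and 3.4 with cadmium, 14.4 and 11.6 with lead and 14.1 and 11.6 with both, without passing with lead alone (log2 ratio 1.25 ± 0.33 (SE), adjusted p = 0.0561). The 3 other Tret1 clusters tested did not pass. Of the sodium-dependent glucose transporters, 54166 fell, at 74.9, 73.2 and 156 CPM untreated, 60.1, 38.2 and 42.4 with cadmium, 18.3 and 4.1 with lead and 35.6 and 19.2 with both (log2 ratio -3.18 ± 0.66 (SE), adjusted p = 0.0333). The more abundant 49906 was at 436, 427 and 425 CPM untreated, 253, 228 and 308 with cadmium, 1044 and 656 with lead and 1059 and 674 with both and did not pass with lead alone (log2 ratio 0.98 ± 0.31 (SE), adjusted p = 0.0875), although its lead libraries lay above all untreated ones. Facilitated glucose transporters had no call among 6 tested and none at an unadjusted p under 0.05, with a median of -0.08.

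Among monocarboxylate transporters, number 12 (68967) was at 2.41, 1.05 and 0.778 CPM untreated, 5.9, 6.04 and 4.34 with cadmium, 10.7 and 15.2 with lead and 12.3 and 10.1 with both (log2 ratio 3.18 ± 0.44 (SE), adjusted p = 0.0139 for lead). Number 10 (26358), named for a mammalian carrier of aromatic amino acids, was at 23.7, 11.4 and 13.6 CPM untreated, 29.2, 20.3 and 30.3 with cadmium, 70.9 and 78.2 with lead and 56.3 and 46.4 with both (log2 ratio 2.20 ± 0.33 (SE), adjusted p = 0.0161). Number 3 (62061), named for a lactate carrier, was at 10.4, 4.22 and 5.52 CPM untreated, 8.12, 14.7 and 14.3 with cadmium, 27.1 and 37.6 with lead and 33.2 and 18.2 with both (log2 ratio 2.27 ± 0.43 (SE), adjusted p = 0.0272). In each of the 3, lead libraries lay above all untreated and all cadmium libraries. Number 14 (29200) was at 22.6, 12.4 and 8.79 CPM untreated, 20.5, 27 and 17.1 with cadmium, 39.5 and 43.7 with lead and 61.7 and 46.2 with both (log2 ratio 1.51 ± 0.38 (SE), adjusted p = 0.0481), the smallest of the called rises. The other 37 SLC16-type members tested had ratios on either side of 0, and the median over all 41 was -0.04. For the 9378 cluster and most of the sodium-coupled class the ganglia held too little to test, and 0 of the 6 tested were called.

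Among amino acid carriers, cluster 46428 had the largest called rise. It matches the large neutral amino acids transporter small subunit 2 in Swissprot and a Y+L amino acid transporter in NR, and was at 2.22, 1.18 and 0.934 CPM untreated, 5.67, 9.37 and 11 with cadmium, 22.6 and 38 with lead and 19.8 and 18.7 with both (log2 ratio 4.38 ± 0.44 (SE), adjusted p = 0.00647 for lead). All 7 exposed libraries lay above the untreated ones. The high affinity cationic amino acid transporter 1 (42856) was at 3.52, 1.24 and 2.02 CPM untreated, 3.83, 5.81 and 5.6 with cadmium, 12.5 and 27.8 with lead and 8.59 and 8.78 with both (log2 ratio 3.15 ± 0.47 (SE), adjusted p = 0.0149), and the AVT1J cluster (46409), named for a plant vacuolar family, was at 10.2, 10.6 and 3.19 CPM untreated, 5.52, 7.01 and 7.38 with cadmium, 48.6 and 32.4 with lead and 33.7 and 27.5 with both (log2 ratio 2.33 ± 0.44 (SE), adjusted p = 0.0265). Cadmium libraries of AVT1J lay among the untreated ones, and in NR this cluster matches a lysine histidine transporter. All 9 tested members of the b(0,+), Y+L and vesicular types together had a positive ratio, 6 of them at an unadjusted p under 0.05. No excitatory amino acid transporter passed, and none of the 7 tested had an unadjusted p under 0.05 (median -0.03).

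These calls rest on few libraries. The count of 9 was 1 without lead replicate 1, 0 without lead replicate 2 and 5 without untreated replicate 3, 1 in a fit of the lead and untreated libraries alone, and 23 with DESeq2.

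**Figure D3:**
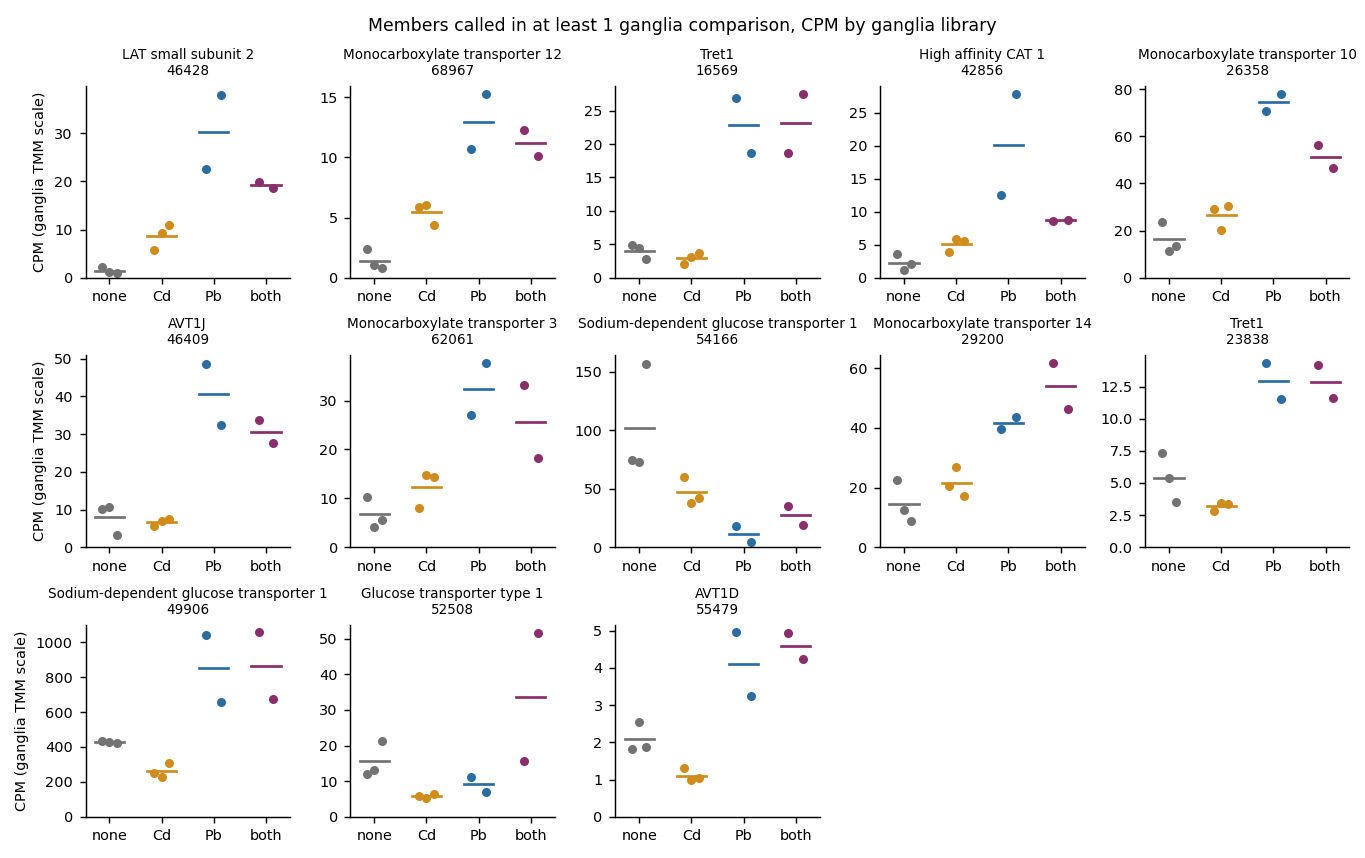
CPM in the ganglia libraries of the 13 members called in at least 1 ganglia comparison with untreated or cadmium ganglia; points are libraries, bars group means, and axes are linear from 0 (none, untreated; both, cadmium and lead). For Tret1 16569 the 4 libraries with lead lie between 18.7 and 27.5 CPM and the 6 without between 2.07 and 4.96, and 54166 is the only panel in which the lead libraries lie below the untreated ones at an adjusted p under 0.05.

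With cadmium and lead together 5 members rose in the ganglia and none fell, against 408 of 38659 clusters called (1.06%). All 5 were also among the 8 that rose with lead alone, a comparison with the same untreated libraries. They were the Y+L-type 46428 (log2 ratio 3.73 ± 0.43 (SE), adjusted p = 0.0157), Tret1 16569 (log2 ratio 2.52 ± 0.36 (SE), adjusted p = 0.0275) and monocarboxylate transporters 12 (68967, log2 ratio 2.97 ± 0.44 (SE), adjusted p = 0.0325), 10 (26358, log2 ratio 1.66 ± 0.33 (SE), adjusted p = 0.0486) and 14 (29200, log2 ratio 1.88 ± 0.38 (SE), adjusted p = 0.0486). For 26358 the combined libraries, at 56.3 and 46.4 CPM, lay below the lead libraries, at 70.9 and 78.2, and for 29200 they lay above. Neither 26358 nor 29200 was called in any fit that left out 1 cadmium, lead or untreated library, while 46428 was called in all of them. Of 105 members 76 had a positive change (72.4%, against 47.8% of all clusters), and 34 had an unadjusted p under 0.05 (32.4%, against 22.1%). The members' median was 0.73 and that of all clusters -0.06. Of 6 sodium-dependent glucose transporters tested 4 had a negative ratio (median -1.32) and none was called, while the class summed to 696.5 to 1098 CPM with both metals and 504.2 to 588.4 untreated. Midgut clusters (297) summed to 7792 to 7966 CPM in these libraries against 2688 to 7765 untreated, with 44 and 55 at 0, and their part was not tested. The count of 5 was 3 without any 1 of the 3 cadmium or 2 lead libraries or without untreated replicate 2, 2 without untreated replicate 1, and 1 without untreated replicate 3 or combined replicate 2. It was 0 in a fit of the compared groups alone, 1 with the replicate block and 23 with DESeq2.

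Against cadmium alone, a contrast of libraries with and without lead, 6 ganglia members were higher with both metals and none lower, with 351 of 38659 clusters called (0.908%). Sugar carriers made up 4 of the 6. Tret1 16569 (log2 ratio 2.95 ± 0.36 (SE), adjusted p = 0.0226) and Tret1 23838 (log2 ratio 1.99 ± 0.34 (SE), adjusted p = 0.0406) rose, as did sodium-dependent glucose transporter 1 (49906, log2 ratio 1.72 ± 0.31 (SE), adjusted p = 0.0409). Glucose transporter type 1 (52508) was at 12.1, 13.3 and 21.2 CPM untreated, 5.82, 5.35 and 6.33 with cadmium, 11 and 7.08 with lead and 15.8 and 51.6 with both (log2 ratio 2.53 ± 0.46 (SE), adjusted p = 0.0409). One combined library held most of that difference and the other lay among the untreated ones. The other risers were the vacuolar-type AVT1D (55479, log2 ratio 2.05 ± 0.39 (SE), adjusted p = 0.045) and AVT1J (46409, log2 ratio 2.20 ± 0.44 (SE), adjusted p = 0.0494). AVT1D was low throughout, at 1.83, 2.54 and 1.87 CPM untreated, 1.3, 0.977 and 1.05 with cadmium, 4.96 and 3.24 with lead and 4.94 and 4.25 with both. Of the 105 members 78 had a positive ratio (74.3%, against 47.8% of all clusters; medians 0.72 and -0.05). Midgut clusters (297) summed to 7792 to 7966 CPM in the combined ganglia and 2221 to 4888 with cadmium, with 44 and 61 at 0, and their part was not tested. The count of 6 was 0 without any 1 cadmium library, untreated replicate 1 or combined replicate 2, 1 without lead replicate 1, 2 without lead replicate 2 or combined replicate 1, and 9 without untreated replicate 2. It was 0 with the replicate block, 4 in a fit of the compared groups alone and 16 with DESeq2.

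The remaining ganglia comparisons had no call by edgeR. Cadmium against untreated gave 0 of 38659 clusters (0.0%) and 0 of 105 members, with 2946 clusters and 17 members at an unadjusted p under 0.05, and 2 members by DESeq2. Among members with a mean of at least 1 CPM the lowest p values belonged to the Y+L-type 46428 (log2 ratio 2.58 ± 0.40 (SE), adjusted p = 0.416), monocarboxylate transporter 12 (68967, log2 ratio 1.93 ± 0.41 (SE), adjusted p = 0.62) and glucose transporter type 1 (52508, log2 ratio -1.41 ± 0.42 (SE), adjusted p = 0.62). In all 3 the cadmium and untreated libraries did not overlap, which is likely for members picked by low p values and adds no support. Combined against lead, which asks what cadmium adds, gave 0 of 38659 (0.0%) and 0 members, with 2242 clusters and 5 members at an unadjusted p under 0.05 and 0 members by DESeq2. Without combined replicate 1 edgeR called 1 member. Among members with a mean of at least 1 CPM, glucose transporter type 1 (52508) had the lowest p (log2 ratio 1.90 ± 0.51 (SE), adjusted p = 0.824), followed by the sodium-coupled neutral amino acid transporter 41604 (log2 ratio 1.98 ± 0.65 (SE), adjusted p = 0.825) and the cationic carrier 42856 (log2 ratio -1.21 ± 0.50 (SE), adjusted p = 0.854).

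In the gland 2 members differed between combined and untreated libraries, with 100 of 44505 clusters called (0.225%) and 122 members tested. Monocarboxylate transporter 13 (41300), which matches monocarboxylate transporter 9 in NR, was at 22.5, 44.4 and 19 CPM untreated, 18.6, 12.6 and 20.2 with cadmium, 6.38 and 8.92 with lead and 1.6 and 2.01 with both (log2 ratio -3.98 ± 0.61 (SE), adjusted p = 0.0458). Its combined libraries lay below all others and its lead libraries below all untreated and cadmium ones. The AVT1B cluster (41891), which matches a proton-coupled amino acid transporter in NR, was at 2.08, 0.993 and 0.906 CPM untreated, 5.43, 7.93 and 3.09 with cadmium, 2.81 and 9.29 with lead and 86.7 and 22.1 with both (log2 ratio 5.35 ± 0.83 (SE), adjusted p = 0.0461). Both combined libraries lay above all others, 1 of them far above. Just outside the threshold was monocarboxylate transporter 9 (26236), at 1.63, 0.935 and 0.845 CPM untreated, 1.09, 6.6 and 1.99 with cadmium, 5.81 and 62.6 with lead and 102 and 142 with both (log2 ratio 6.74 ± 1.10 (SE), adjusted p = 0.0508). Clusters 51303 and 51304, which both match cationic amino acid transporter 4 in NR, came next (log2 ratio 3.03 ± 0.58 (SE), adjusted p = 0.0815, and log2 ratio 4.23 ± 0.83 (SE), adjusted p = 0.0844). The members' median was 0.65 and that of all clusters -0.04, with 31 members (25.4%) and 14.9% of all clusters at an unadjusted p under 0.05. Muscle clusters summed to 2753 to 3199 CPM in the combined glands and 3097 to 5139 in untreated ones, with 40 and 25 of 107 at 0. Hemolymph clusters (28) summed to 811.5 to 1739 and 1053 to 7532 CPM, with 5 and 1 at 0, and of 58 muscle clusters tested 7 fell. Nerve clusters summed to 1127 to 1517 CPM in the combined glands and 927.3 to 1124 in untreated ones, without overlap, with 43 and 31 of 97 at 0. Silk clusters summed to 67970 to 99770 and 42960 to 186500 CPM, with 2 and 6 of 69 at 0, and 12 of the 62 tested rose. The part of these lists was not tested. The count of 2 was 0 without untreated replicate 1 or 2, any 1 cadmium library or combined replicate 1, 1 without combined replicate 2, 4 without either lead library and 6 without untreated replicate 3. It was 0 with the replicate block and in a fit of the compared groups alone, 3 with RLE size factors, and 20 with DESeq2.

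The sodium-coupled monocarboxylate transporters of the gland, which bring in lactate and short fatty acids with sodium, leaned one way without a call. All 18 tested members had a positive ratio in combined against untreated glands (median 2.37) and 15 of 18 in lead against untreated (median 2.56), where 48.9% and 46.1% of all clusters were positive. With cadmium 10 of 18 were positive (median 0.18). The counts were the same with RLE size factors, apart from 9 of 18 with cadmium. Their summed level was 5.12, 22.9 and 17.4 CPM in untreated glands, 9.47, 25.9 and 28.4 with cadmium, 86.7 and 43.3 with lead and 142 and 43.6 with both. The 4 libraries with lead lay above the 6 without. In the ganglia the sums were 16.7 to 50.6 CPM untreated and 34.5 to 69.4 with lead in either form, and overlapped. Cluster 65443 was at 0.338, 0.409 and 1.21 CPM untreated, 0.592, 6.64 and 1.79 with cadmium, 29.1 and 3.52 with lead and 49.8 and 4.84 with both in the gland. Cluster 9378, which matches a multivitamin carrier in NR, was at 0.956, 0.584 and 4.77 CPM untreated, 0.74, 2.32 and 1.79 with cadmium, 9.51 and 14.1 with lead and 23.5 and 10.2 with both. The 18 clusters are 457 to 3602 bases long and several may be parts of one gene, so they are not independent. The filter keeps a cluster by its level in any group, so clusters near 0 untreated may have been tested only for their level with lead. For such clusters a positive ratio was likely beforehand, so these signs describe the class and are no test of it.

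With lead alone no gland member was called, nor any of 44505 clusters (0.0%), by edgeR. At an unadjusted p under 0.05 there were 31 members (25.4%) and 5283 clusters (11.9%), and DESeq2 called 10 members. The lowest p values were those of monocarboxylate transporters 9 (49159, log2 ratio 2.76 ± 0.56 (SE), adjusted p = 0.216), 9 (26236, log2 ratio 4.90 ± 1.02 (SE), adjusted p = 0.221) and 2 (70451, log2 ratio 2.21 ± 0.47 (SE), adjusted p = 0.221). Monocarboxylate transporter 9 (49159) was at 17.8, 35.1 and 30.9 CPM untreated, 44.1, 69 and 30.6 with cadmium, 270.4 and 108 with lead and 188 and 116 with both, and the 4 gland libraries with lead lay above the 6 without. Monocarboxylate transporter 2 (70451), named for a lactate carrier but matching monocarboxylate transporter 12 in NR, was at 7.48, 7.77 and 8.75 CPM untreated, 11.2, 7.49 and 5.56 with cadmium, 36.5 and 37.7 with lead and 26.3 and 52.9 with both, with the same separation. Both clusters were picked by low p values with lead, so separation was likely beforehand and adds no support. In the ganglia neither showed that separation: 49159 had no count in either lead library, and 70451 was at 7.58 and 9.24 CPM with lead, within its range in the libraries without lead. The interaction test below called no member, so a difference between the tissues is not shown. Without lead replicate 1 edgeR called 1 member. Muscle clusters summed to 1634 to 2084 CPM with lead against 3097 to 5139 untreated, hemolymph clusters to 365.4 to 641.6 against 1053 to 7532, nerve clusters to 1550 to 1641 against 927.3 to 1124, and midgut clusters to 3972 to 4729 against 3173 to 3580. Of these lists 38 of 107, 6 of 28, 39 of 97 and 52 of 297 clusters were at 0 with lead. Silk clusters summed to 96820 to 161200 CPM, within the untreated range, with 0 of 69 at 0, and 28 of the 62 tested had an unadjusted p under 0.05, with none called. The part of these lists was not tested.

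Cadmium alone gave no call in the gland, with 0 of 44505 clusters (0.0%), 0 of 122 members by edgeR and by DESeq2, and 4 members and 1273 clusters at an unadjusted p under 0.05. Cationic amino acid transporter clusters had the lowest p values. Cluster 51303 was at 2.59, 2.86 and 2.66 CPM untreated, 8.93, 18.4 and 7.76 with cadmium, 5.36 and 14.1 with lead and 21.1 and 23.2 with both (log2 ratio 2.11 ± 0.54 (SE), adjusted p = 1 for cadmium), and 51304 had log2 ratio 2.57 ± 0.74 (SE), adjusted p = 1. Untreated libraries lay below all exposed ones in 51303, and its ganglia libraries held at most 1.05 CPM. It was picked by its low p value with cadmium, so that separation adds no support. Combined against cadmium had 0 of 44505 clusters (0.0%) and 0 members by edgeR, 24 members and 5032 clusters at an unadjusted p under 0.05, and 12 members by DESeq2. It was led by monocarboxylate transporters 13 (41300, log2 ratio -3.24 ± 0.59 (SE), adjusted p = 0.159), 9 (26236, log2 ratio 5.24 ± 1.03 (SE), adjusted p = 0.187) and 2 (70451, log2 ratio 2.29 ± 0.47 (SE), adjusted p = 0.211), and without lead replicate 1 or 2 it had 1 call. Combined against lead had 0 clusters (0.0%), 0 members by either tool, and 6 members and 902 clusters at an unadjusted p under 0.05. Its lowest p values were those of 41300 (log2 ratio -2.08 ± 0.58 (SE), adjusted p = 1), 41891 (log2 ratio 3.17 ± 0.89 (SE), adjusted p = 1) and 69299 (log2 ratio -3.42 ± 1.14 (SE), adjusted p = 1).

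**Figure D4:**
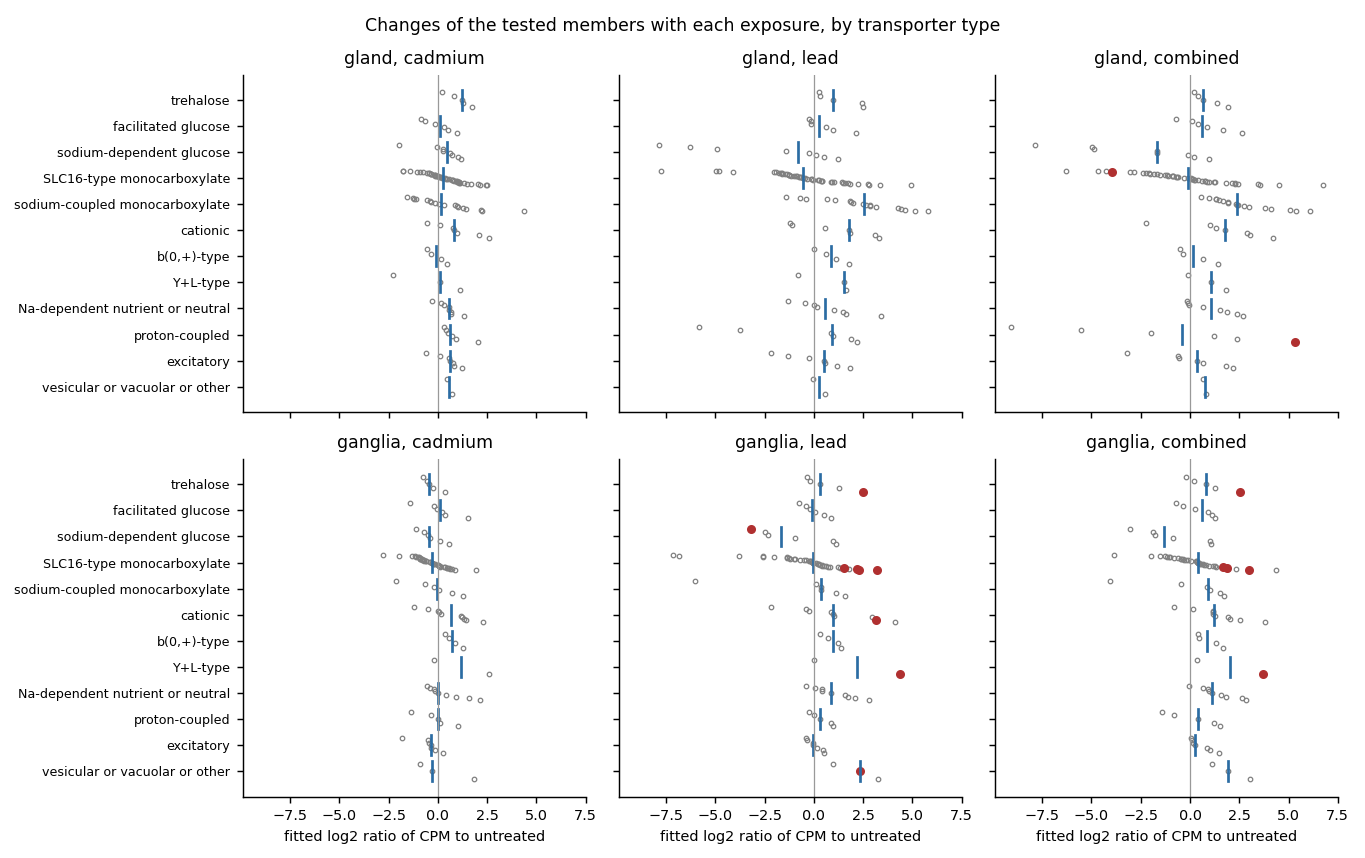
Fitted log2 ratio of CPM to untreated libraries of the same tissue for each tested member, 1 row per transporter type; filled points passed an adjusted p under 0.05 and blue bars are row medians. The UDP-sugar transporter is not drawn. In the gland the sodium-coupled monocarboxylate row lies right of 0 for all 18 members with both metals, with none filled, and 14 of the 16 filled points in the 6 panels are in the ganglia.

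Whether exposure acted differently in the tissues was tested as an interaction over all 20 libraries with 3 degrees of freedom. It called 0 of 51904 clusters (0.0%) and 0 of 136 members by edgeR, with 3185 clusters (6.14%) and 26 members (19.1%) at an unadjusted p under 0.05, and 5 members by DESeq2. The lowest p values were those of monocarboxylate transporters 13 (41300, adjusted p = 0.245) and 9 (26236, adjusted p = 0.31). The rises in the ganglia are therefore not shown to differ from the gland values of the same clusters. Tret1 16569, for example, was at 3.71, 1.81 and 0.725 CPM untreated, 2.32, 5.71 and 3.02 with cadmium, 18.8 and 4.31 with lead and 10.1 and 0.785 with both in the gland, and 46428 was at 0, 0.584 and 9.48 CPM untreated, 1.78, 6.33 and 13.7 with cadmium, 0.574 and 3.28 with lead and 3.21 and 3.14 with both.

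As a share of all counts, the members took more of the library where lead was given. They held 0.386 to 0.439% of the counts in the 4 ganglia libraries with lead and 0.176 to 0.278% in the 6 without. In the gland they held 0.228 to 0.284% with lead and 0.146 to 0.189% without. The ranges did not overlap in either tissue, nor when the single largest cluster of each library was left out of the total (0.447 to 0.502% and 0.221 to 0.341% in the ganglia, 0.242 to 0.307% and 0.160 to 0.207% in the gland). The 5 members with the highest FPKM made up 49.7 to 63.0% of member counts in the ganglia with lead and 51.7 to 58.1% in untreated ganglia. The other members had 0.159 to 0.203% of counts in the ganglia with lead, 0.0888 to 0.109% untreated and 0.0902 to 0.152% with cadmium. In the gland they had 0.1228 to 0.1449% with lead alone and 0.1524 to 0.1891% with both metals. Untreated glands had 0.08295 to 0.1075% and cadmium glands 0.08947 to 0.1307%, so here the lead and cadmium ranges overlapped. On the scaled CPM axis the sums were 3095 to 4556 CPM with lead and 2198 to 2816 without in the ganglia, and 2282 to 3200 and 1218 to 2147 in the gland.

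**Figure D5:**
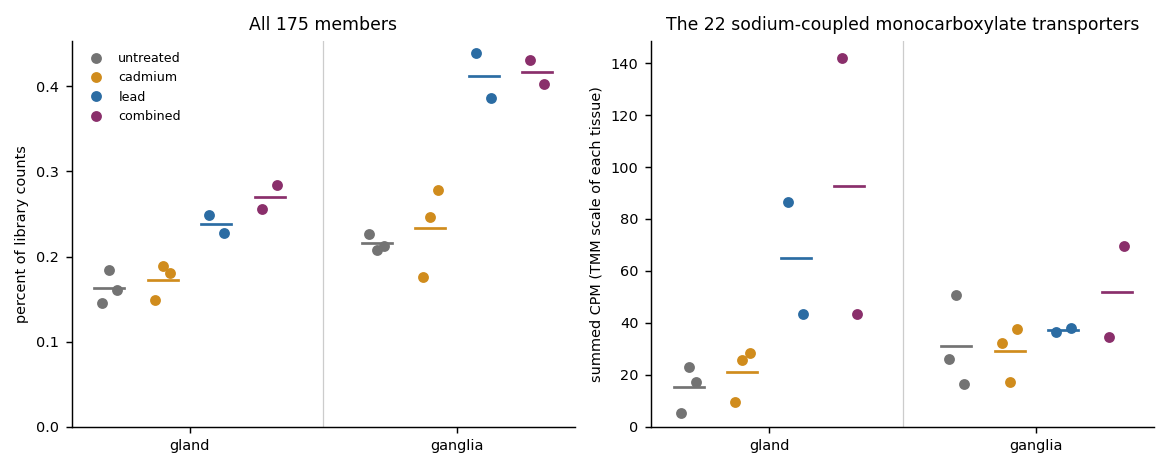
Left, the percent of each library's counts in the 175 members; right, the summed CPM of the 22 sodium-coupled monocarboxylate transporters. Points are libraries and bars group means, and both axes start at 0. In each tissue the 4 libraries with lead (lead and combined) lie above the 6 without on the left, and on the right this holds in the gland only, with ranges of 43.3 to 142 and 5.12 to 28.4 CPM.

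Other genes of these pathways were taken by their descriptions. The list for glycogen metabolism, which stores glucose, also took in hexokinase and phosphoglucomutase. Of its 39 clusters 26 were tested in the ganglia, and with lead 2 fell and 0 rose (7.69%, against 4.92% of all clusters called). These were hexokinase-2, which phosphorylates glucose (log2 ratio -3.19 ± 0.77, adjusted p = 0.0448), and glycogen phosphorylase, which releases it (-1.55 ± 0.38, adjusted p = 0.0451). Of 42 clusters found by words for insulin, adipokinetic hormone and TOR signalling, 32 were tested and 4 rose and 2 fell with lead (18.8%). Insulin-like peptide receptors 51679 (1.96 ± 0.44, adjusted p = 0.0368) and 64826 (2.08 ± 0.50, adjusted p = 0.0442), an insulin receptor (29608, 2.45 ± 0.57, adjusted p = 0.0412) and insulin receptor substrate 2-B (27122, 2.19 ± 0.52, adjusted p = 0.0435) rose. Those that fell were 2 insulin-like growth factor-binding protein-related clusters, which are named for a binding domain. Receptor 64826 was also the single member of that list called with the combined exposure (2.67 ± 0.51, adjusted p = 0.047) and in combined against cadmium. Of 58 other amino acid and peptide carriers 35 were tested and 3 called (8.57%), and with lead a glycine transporter rose (3.36 ± 0.74, adjusted p = 0.0349) while a GABA transporter (-1.33 ± 0.30, adjusted p = 0.038) and a mitochondrial basic amino acid carrier (-2.28 ± 0.55, adjusted p = 0.044) fell. Of 12 other sugar carriers none of the 7 tested in the ganglia was called with lead. In the gland the single call over these 4 lists against untreated was sodium/glucose cotransporter 2 with both metals (6.85 ± 1.06, adjusted p = 0.0458), 1 of 9 other sugar carriers tested. Between the untreated tissues, where 10.3% of all clusters were called, 3 of 31 glycogen clusters (9.68%), 3 of 9 sugar carriers (33.3%), 6 of 48 amino acid carriers (12.5%) and 9 of 34 insulin-list clusters (26.5%) were called. Of these 2, 2, 3 and 2 had more in the gland. The insulin-list calls include clusters named for an insulin-induced gene, an insulinoma-associated protein and a leucine-rich repeat protein. That share therefore describes a word search and not insulin signalling alone. All of these adjusted p-values are edgeR's, over all clusters tested.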

How the data were processed

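Ampullate gland and cerebral ganglia RNA was extracted with RNeasy mini plus, made into SMARTER mRNA-Seq libraries and sequenced on an Illumina NovaSeq, per the labels' protocols. The authors deposited estimated counts per assembled gene cluster, and a second deposited table holds FPKM values. The header does not name that unit, which was read from the values. The deposited count table also gives each cluster's length, protein descriptions and a nucleotide hit score by the authors. A hit score of at least 0.5 per base with a hit that is no spider marked 3 members as another organism's sequence. Which assembler, aligner and counter were used is not given in the sources used here.

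Of 24 deposited columns 4 were copies of another and were left out, leaving 20 libraries, and 0 columns had no sample. Estimated counts were rounded, filtered with edgeR's filterByExpr, scaled by TMM and tested with edgeR 4.0.16 (R 4.3.3) in 1 fit per tissue, or over all 20 libraries for tissue and interaction. The fits assume that the groups of 2 vary as the larger groups do. The filter kept 122 members in the gland, 105 in the ganglia and 136 over all libraries, and 39 entered no fit. Library totals of 14834065 to 20954478 counts limit precision by counting error, and the common biological coefficient of variation was 0.902 in the gland fit and 0.496 in the ganglia fit. A bound on a ratio uses a floor of 3 counts over a group, which covers counting error only. Named members are the 3 highest by CPM of each class, up to 5 called in each direction by size with a mean of at least 1 CPM, and, where none was called, the 3 with the lowest p. Other members are named where a sentence describes a class. The members and lists were chosen with earlier results of these data known. Alternatives were RLE scaling, other filters, the replicate number as a block, DESeq2 1.42.0, fits of the compared groups alone and leaving out each library. On simulated data the gland fit called none of the changes put in and the ganglia fit a part of them, so in the gland the lack of a call does not show a lack of change. Summaries used Python 3.11.15 and pandas 2.3.3.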

Additional observations from a re-analysis of the deposited data

How the results depend on the processing

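The number of members called depended on the tool, the filter and single libraries, and the causes were not tested. Counts under alternative settings, here and above, are of members alone, without the share of all clusters called in that setting. They do not show whether members were called more often than other clusters. Without a filter on low counts, members called against untreated were 10 with lead and 17 with both metals in the gland, and 6 with cadmium, 27 with lead and 33 with both in the ganglia. Combined against cadmium gave 10 in the gland and 26 in the ganglia, combined against lead 4 in the ganglia, the untreated tissues 46 and the interaction 14. DESeq2 called 10, 20, 2, 23 and 23 in the first 5 of these, 12 and 16 in combined against cadmium, 43 between tissues and 5 for the interaction. In fits of the compared groups alone the counts were 0 for both metals in the gland, 1 for lead and 0 for both in the ganglia, 4 for combined against cadmium in the ganglia and 10 between tissues.

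With the replicate block the counts were 0 for both metals in the gland, 7 for lead, 1 for both metals and 0 for combined against cadmium in the ganglia, and 21 between tissues. Same-numbered libraries had correlations of their deviations between -0.339 and 0.299 in the ganglia and between -0.229 and 0.376 in the gland (13 pairs each). The medians were 0.134 for same numbers and -0.107 for different numbers in the ganglia, and -0.0495 and 0.045 in the gland. Between the tissues within an exposure same numbers gave -0.322 to 0.0678 (10 pairs), with medians of -0.129 and 0.095 for same and different numbers. Within each lead or combined group the deviations were mirror images, so many pairs are not independent. The check therefore cannot decide whether the numbers pair the libraries.

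Leaving out each library in turn gave ranges of 0 to 1 for lead, 0 to 6 for both metals and 0 to 1 for combined against cadmium in the gland. In the ganglia they were 0 to 11 for lead, 1 to 4 for both metals, 0 to 9 for combined against cadmium and 0 to 1 for combined against lead, and 18 to 35 between tissues. Of the values of named members under all alternatives 658 kept their direction and side of the threshold, 155 lost and 21 gained a call, and 0 reversed. RLE scaling moved the median of all clusters from 0.07 to -0.03 with cadmium and from -0.15 to -0.27 with lead in the gland. Groups of 2 libraries limit every comparison with lead.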

Other observations

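Some members differed widely between libraries of one group, outside any comparison above. Monocarboxylate transporter 13 (45389) was the sixth member by mean FPKM, yet its level in untreated gland, 47.6 ± 81.6 FPKM (SD, n = 3), came almost wholly from 1 library. The 15 members with a microbial Swissprot hit and no spider hit had 142 estimated counts in untreated gland replicate 1, 17 in lead gland replicate 1, 23 in combined gland replicate 2, and 3 and 2 in the combined ganglia libraries. In the other 15 libraries they had 0 counts.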
